A study of Mus musculus with 4 samples.

Results

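Sclerotome and somite polarity regulators were followed in mouse embryos that lack Nr6a1, the orphan nuclear receptor formerly called Gcnf. The 10 genes were Pax1, Pax9, Nkx3-2, Tbx18, Foxc1, Foxc2, Meox2, Scx, Twist1 and Cdh11. They were chosen by name, and every probe set that the platform annotation gives to one of these symbols alone was taken, which gave 18 of the 45037 probe sets tested and 10 of 18193 genes with a probe set of their own. All 10 genes were measured, 7 of them by more than 1 probe set. RNA was extracted from 2 Gcnf-/- and 2 wt whole embryos at embryonic day 9.0 and hybridised to Affymetrix expression arrays, 1 array per embryo. The Gcnf-/- embryos carried the mutation on both alleles in every tissue and the wt embryos were wild type. The study's methods give a collection window that reaches somewhat past the labelled stage, and state a background, written C56BL/6 there, for the mutant line. The somite number and litter of these embryos were not found in the labels or methods. Citing earlier work, the paper describes embryos without Nr6a1 as slower to develop once somites begin to form and as failing to turn. The part of such a delay in the values below was not tested.

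Somites are the paired blocks of mesoderm that form along the neural tube. Signals from the notochord and floor plate, chiefly Sonic hedgehog, turn the ventral part of each somite into sclerotome, the source of vertebrae and ribs, while the dorsal part becomes dermomyotome. Each somite is also divided into an anterior and a posterior compartment, and this polarity shapes vertebral elements and the path of nerves and neural crest. Several of the genes are active elsewhere at this stage too, among them Twist1 and Foxc1 in head mesenchyme, Pax1 and Pax9 in pharyngeal pouches and Tbx18 around the heart. In RNA of a whole embryo, fewer cells of a type and less RNA per cell cannot be told apart.

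Before the members are considered, some features of the arrays bear on them. The wt replicate 1 embryo was the one female by its Xist signal, 13.11 against 6.44 to 6.68 on the other 3 arrays, and 17 of the 18 member probe sets read higher in it than in wt replicate 2, against 50.1% of all probe sets. The array of wt replicate 1 also stood apart in its control probe sets. Poly-A spike controls read 9.61 on it against 10.30 to 10.38 on the other 3 arrays. Controls for 18S ribosomal RNA read higher in Gcnf-/- embryos by a log2 difference of 1.06, and were lowest in wt replicate 1, at 9.45 beside 9.99 in wt replicate 2. The 3′ actin controls were lowest there too, at 13.64 beside 13.85. The part of any of these in the results was not tested, and every member is given below without each array. The 5 Nr6a1 probe sets read 0.05 to 0.56 above wt on the log2 scale in Gcnf-/- embryos, 0 of them passed, and where they lie with respect to the deletion was not known, so that they do not check the labels.

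The forkhead genes Foxc1 and Foxc2 and the homeobox gene Meox2 stood furthest below wt, and every probe set of the 3 genes read lower in both Gcnf-/- embryos than in either wt embryo. Pax1, Scx and Cdh11 lay below wt by less, and Pax9, Nkx3-2, Tbx18 and Twist1 had overlapping genotypes on the brightest probe set. None of the 18 probe sets passed the study's thresholds, an adjusted p up to 0.05 together with 2-fold or more, which 0.382% of all probe sets passed in either direction. At an adjusted p of 0.05 whatever the fold there were also 0 members, against 439 of the 45037 probe sets in either direction. Those lower in Gcnf-/- embryos made up 0.255% of all probe sets. The smallest adjusted p was 0.0506, for Meox2, and 7 of the 18 had an unadjusted p under 0.05 in limma, against 20.1% of all probe sets.

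**Figure D1:**
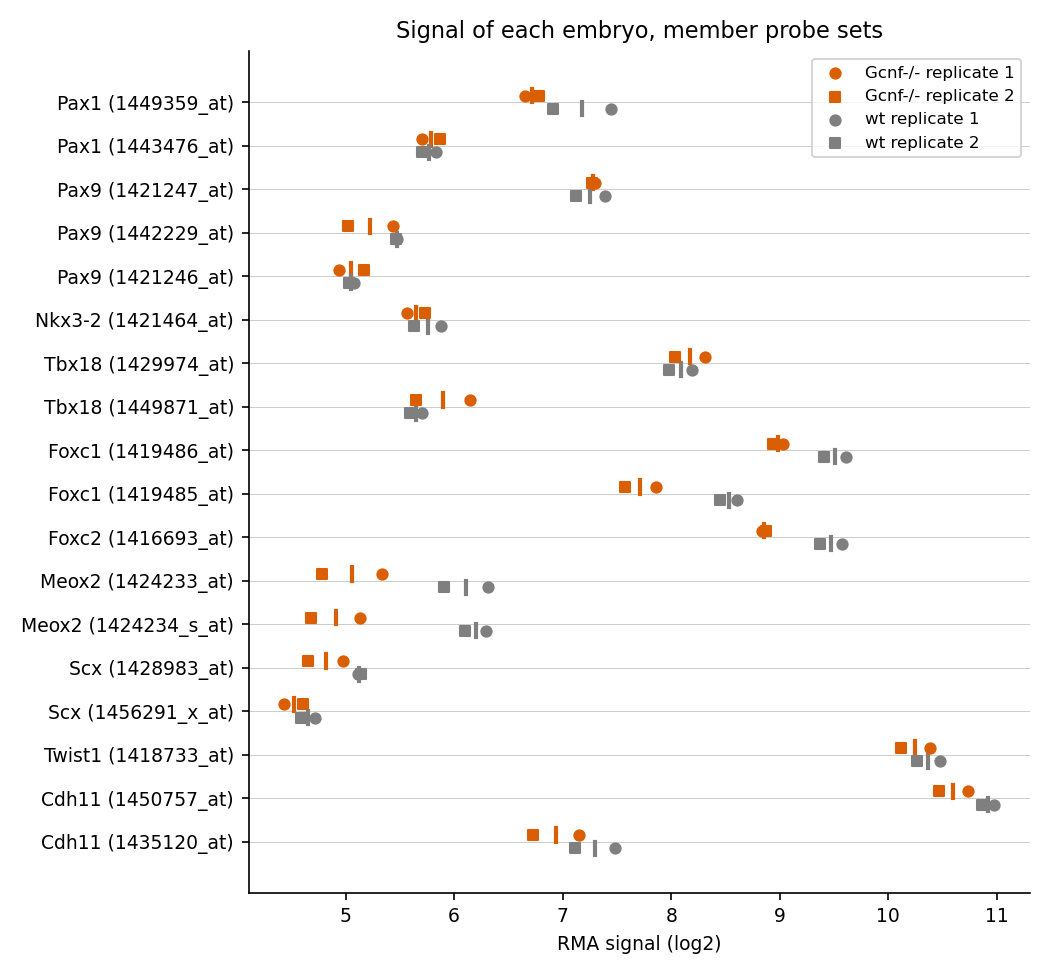
Log2 signal after RMA (horizontal axis) in the 4 embryos for the 18 probe sets of the 10 genes (rows); orange is Gcnf-/-, grey is wt, circles and squares are replicates 1 and 2 and vertical bars are group means. The genotypes stand apart for both Foxc1 probe sets, Foxc2 and both Meox2 probe sets, and lie over each other for Tbx18 and Twist1.

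Of the genes that carried the widest differences, Foxc1 and Meox2 had a promoter in the RefSeq table of build GRCm38.p6, and the 250 bases before each start are shown 5′ to 3′ so that the matches named here can be read in place. Capitals mark the GC box GGGCGG, the CCAAT box and the TATA box TATAAA, searched on both strands, none of which overlap in these sequences.
Foxc1, chr13:31806396-31806645, plus strand: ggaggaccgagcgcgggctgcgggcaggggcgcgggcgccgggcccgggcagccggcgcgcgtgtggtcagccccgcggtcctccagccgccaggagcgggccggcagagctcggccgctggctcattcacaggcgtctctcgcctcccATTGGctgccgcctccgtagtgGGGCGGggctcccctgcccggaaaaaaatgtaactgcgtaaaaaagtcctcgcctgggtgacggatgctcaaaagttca
Meox2, chr12:37108290-37108539, plus strand: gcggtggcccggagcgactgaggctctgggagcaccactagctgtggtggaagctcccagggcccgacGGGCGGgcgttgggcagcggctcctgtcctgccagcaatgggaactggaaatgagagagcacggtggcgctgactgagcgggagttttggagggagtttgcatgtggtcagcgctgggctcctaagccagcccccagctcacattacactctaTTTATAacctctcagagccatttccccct
Foxc1 held a GC box that begins 79 bases before the start and a CCAAT box on the minus strand at 101 bases. Meox2 held a GC box at 182 bases and a TATA box on the minus strand at 29 bases. Promoters matched 7 of the 10 genes, the others being Foxc2, Scx and Cdh11. A GC box was in 5 of the 7, against 32.7% of all 32851 promoters of this length, a CCAAT box in 4 of the 7 against 33.9%, and a TATA box in 2 of the 7, Meox2 and Twist1, against 12.4%. The letters AGGTCA, the core element that nuclear receptors bind, were in 0 of the 7 windows and in 14.0% of all promoters, and the Gli site ACCACCCA in 0 and in 1.28%. The 5 promoters with a GC box were 58.8% to 70.8% G or C, beside a median of 52.4% over all promoters, and the part of base composition was not tested. These matches are descriptions of the letters in the windows.

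Foxc1 and Foxc2 encode closely related forkhead factors that act together in paraxial mesoderm, where mice without both form no proper somites, and later in the sclerotome. Foxc1 read 9.03 and 8.94 in Gcnf-/- embryos and 9.61 and 9.40 in wt embryos on its brighter probe set (1419486_at). The dimmer one (1419485_at) read 7.86 and 7.58 in Gcnf-/- embryos, against 8.61 and 8.45 in wt embryos. On both, the wt embryos were high and the genotypes did not overlap. The gap between the nearest embryos of different genotype was 0.38 and 0.59, wider than the range within either genotype, which reached 0.20 and 0.28. The log2 fold change, Gcnf-/- minus wt, was -0.52 ± 0.10 (moderated SE, n = 2 each, adjusted p = 0.0837 in limma) on the brighter and -0.81 ± 0.12 (adjusted p = 0.0599) on the dimmer probe set, or 1.43-fold and 1.76-fold lower in Gcnf-/- embryos.

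Foxc2 had 1 probe set, which read 8.83 and 8.88 in Gcnf-/- embryos and 9.58 and 9.37 in wt embryos. Both Gcnf-/- embryos were low and lay within 0.04 of each other. The log2 fold change was -0.62 ± 0.09 (95% interval -0.86 to -0.38, limma adjusted p = 0.0619), or 1.54-fold lower in Gcnf-/- embryos. The interval is that of a single probe set and takes no account of the number tested.

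Meox2 (formerly Mox2 or Gax) is a homeobox gene of the epithelial somite and later of its derivatives, and acts together with its relative Meox1 in sclerotome and muscle development. Its brighter probe set (1424233_at) read 5.34 and 4.78 in Gcnf-/- embryos and 6.31 and 5.91 in wt embryos. The second (1424234_s_at, whose suffix marks probes shared between transcripts) read 5.14 and 4.68 in Gcnf-/- embryos and 6.30 and 6.10 in wt embryos. Every Gcnf-/- value was below every wt value, by at least 0.57 and 0.97. The log2 fold change was -1.05 ± 0.22 (adjusted p = 0.103) on the first and -1.29 ± 0.17 (adjusted p = 0.0506) on the second, or 2.07-fold and 2.44-fold lower in Gcnf-/- embryos. Meox2 was the one member with a change of over 2-fold, and both probe sets were dim, with a mean signal under the median of 6.84 over all probe sets.

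Whether Meox2 counts as called depended on the processing. The second probe set passed both thresholds after the arrays were quantile normalised again (adjusted p = 0.0386), after median centring (adjusted p = 0.0420) and with an intensity trend (adjusted p = 0.0155), and the first with an intensity trend (adjusted p = 0.0439). With the intensity trend, both Foxc1 probe sets (adjusted p = 0.0280 and 0.0192) and Foxc2 (adjusted p = 0.0178) also had an adjusted p of 0.05 or lower, short of 2-fold. Tested among probe sets above the median signal alone, which leaves Meox2 out, Foxc2 (adjusted p = 0.0262) and Foxc1 (adjusted p = 0.0278 and 0.0352) did too. So did Foxc2 (adjusted p = 0.0465) and the dimmer Foxc1 probe set (adjusted p = 0.0416) after repeated quantile normalisation, and both genes as the mean of their probe sets (adjusted p = 0.0337 for Foxc2 and 0.0373 for Foxc1). With the replicate number as a block none of the 18 did, and 0 of all probe sets passed both thresholds. The share of all probe sets at an adjusted p of 0.05 alone is not given for these fits. Over all probe sets, both thresholds were passed by 260 with the intensity trend, 173 above the median signal and 215 after repeated quantile normalisation. The main fit had 172.

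Pax1 and Pax9 encode paired-box factors that are turned on in the ventral somite by hedgehog signalling and act together in the sclerotome. Pax1 read 6.65 and 6.78 in Gcnf-/- embryos and 7.45 and 6.91 in wt embryos on its brighter probe set. The genotypes did not overlap, but the gap of 0.13 was smaller than the range of 0.53 between the wt embryos, and the log2 fold change was -0.46 ± 0.18 (95% interval -0.93 to 0.00, adjusted p = 0.251). Without wt replicate 1 it was -0.20, and without wt replicate 2 it was -0.73. The dimmer Pax1 probe set stood at 0.02, with overlapping genotypes. Pax9 read 7.30 and 7.27 in Gcnf-/- embryos and 7.39 and 7.13 in wt embryos on its brightest probe set, so that both Gcnf-/- embryos lay between the wt embryos. Its log2 fold change was 0.03 ± 0.10, with a 95% interval from -0.24 to 0.29. The other Pax9 probe sets stood at -0.24 and 0.00, both with a mean signal under 6.84.

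Nkx3-2, also called Bapx1, is a homeobox target of Pax1 and Pax9 that carries sclerotome cells towards cartilage. Its single probe set read 5.57 and 5.73 in Gcnf-/- embryos and 5.88 and 5.63 in wt embryos, with a log2 fold change of -0.11 ± 0.11 (95% interval -0.40 to 0.18). The signal was dim and the genotypes overlapped.

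Tbx18 encodes a T-box factor that maintains the anterior compartment of each somite, and it was the member with both probe sets above wt. The brighter read 8.31 and 8.04 in Gcnf-/- embryos and 8.19 and 7.98 in wt embryos, and the dimmer 6.14 and 5.65 in Gcnf-/- embryos and 5.70 and 5.59 in wt embryos. The genotypes overlapped on both, at log2 fold changes of 0.09 ± 0.13 (95% interval -0.23 to 0.41) and 0.25 ± 0.17 (95% interval -0.19 to 0.69). Uncx, which maintains the posterior compartment, read 5.84 and 5.43 in Gcnf-/- embryos and 7.33 and 6.29 in wt embryos. Its log2 fold change was -1.17 ± 0.36 (adjusted p = 0.170), or -0.65 without wt replicate 1. The difference between the genes of the anterior and posterior compartments was not tested.

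Scx encodes a basic helix-loop-helix factor of tendon progenitors, which arise from the syndetome at the edge of the sclerotome. Its brighter probe set read 4.98 and 4.66 in Gcnf-/- embryos and 5.11 and 5.14 in wt embryos, at a log2 fold change of -0.31 ± 0.12 (adjusted p = 0.249). The gap of 0.13 between genotypes was smaller than the range of 0.32 within Gcnf-/- embryos, and the dimmer probe set, at -0.13, overlapped. Both were among the dimmest of the 18, at mean signals of 4.97 and 4.59.

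Twist1, a basic helix-loop-helix factor of mesenchyme in head, somite and limb, read 10.38 and 10.12 in Gcnf-/- embryos and 10.47 and 10.26 in wt embryos. The genotypes overlapped and the log2 fold change was -0.12 ± 0.12 (95% interval -0.44 to 0.20). Cdh11, a cadherin of mesenchymal cells, read 10.73 and 10.46 in Gcnf-/- embryos and 10.98 and 10.86 in wt embryos on its brighter probe set. The values did not overlap, with a gap of 0.13 against a range of 0.27 within Gcnf-/- embryos, and the log2 fold change was -0.32 ± 0.11 (95% interval -0.61 to -0.03, adjusted p = 0.213), while the dimmer probe set stood at -0.36 ± 0.19 with overlapping genotypes.

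**Figure D2:**
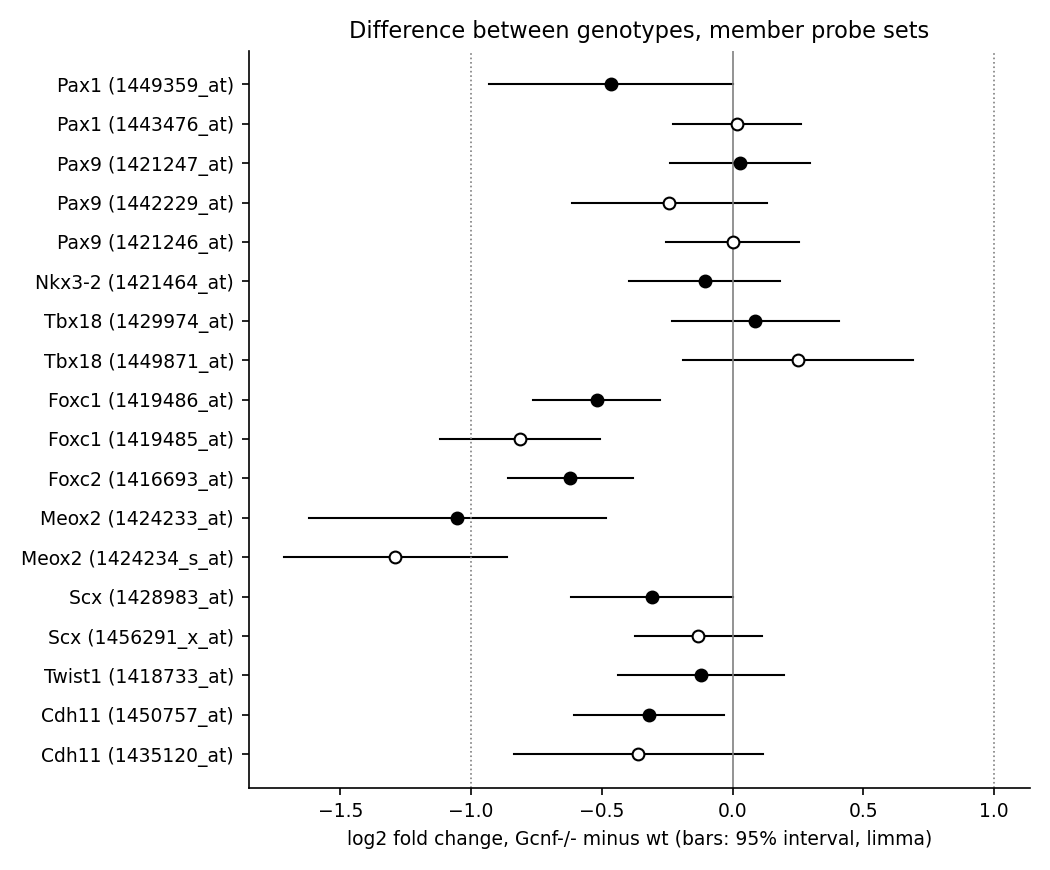
Log2 fold change (horizontal axis, Gcnf-/- minus wt) of the 18 probe sets, with limma's 95% interval of each single probe set as bars; filled points are the brightest probe set of a gene and dotted lines mark 2-fold. Values run from -1.29 for Meox2 to 0.25 for Tbx18, and the intervals of Foxc1, Foxc2 and Meox2 lie wholly below 0.

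Over all the members, 13 of 18 probe sets lay below wt, where 52.9% of all probe sets did. Taking the brightest probe set of each gene, 8 of 10 genes lay below wt with a median log2 fold change of -0.31, beside a median of -0.01 over all probe sets. In 9 of the 18 both Gcnf-/- embryos were lower than both wt embryos, which held for 27.3% of all probe sets, and in 0 both were higher, against 23.5%. The gap between genotypes exceeded the range within each in 5 of the 18, all of Foxc1, Foxc2 and Meox2, against 22.5% of all probe sets. These shares describe a list chosen with earlier results of the data known and were not tested.

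Each array was left out in turn to see which values rest on 1 embryo. Foxc1 stayed between -0.62 and -0.42 on its brighter probe set, Foxc2 between -0.72 and -0.52 and Meox2 between -1.33 and -0.77, the last without Gcnf-/- replicate 2. Scx ran from -0.47 without Gcnf-/- replicate 1 to -0.15 without Gcnf-/- replicate 2, and Cdh11 from -0.45 to -0.18 without the same arrays. Pax9, Nkx3-2, Tbx18 and Twist1 changed side at least once. Of the 10 genes, 7 lay below wt without wt replicate 1 or without Gcnf-/- replicate 2, 9 without Gcnf-/- replicate 1 and 10 without wt replicate 2. In each of these fits 1 genotype is a single embryo assumed to vary like the others, so that only effect sizes are given.

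**Figure D3:**
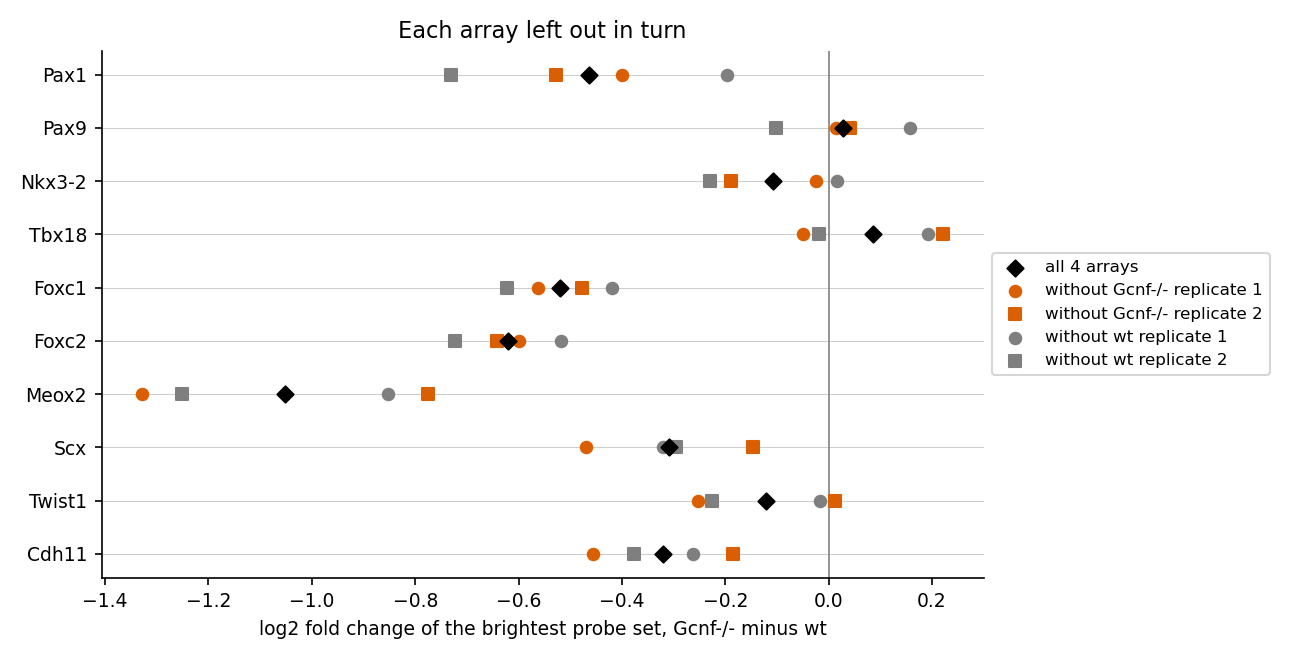
Log2 fold change of the brightest probe set of each gene (horizontal axis, Gcnf-/- minus wt) with all 4 arrays (black) and without each array in turn (orange, a Gcnf-/- embryo left out; grey, a wt embryo left out). Foxc1, Foxc2 and Meox2 remain at -0.42 or lower in every fit shown, and Pax9, Nkx3-2, Tbx18 and Twist1 cross 0.

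Upstream signals of the sclerotome lay on both sides of wt. Of 13 measured genes of hedgehog signalling and of the BMP antagonists, 0 passed an adjusted p of 0.05, with a median log2 fold change of -0.04. Shh, the ligand itself, stood at -0.17 (adjusted p = 0.280), and the transcriptional effectors Gli1, itself a target of the pathway, and Gli3 stood at 0.22 (adjusted p = 0.199) and -0.16 (adjusted p = 0.301). Boc, a hedgehog co-receptor, stood highest at 0.43 (adjusted p = 0.0746).

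Genes of somite formation and polarity were spread widely around a median of -0.06, with 9 of 13 below wt. Tcf15 (paraxis), which keeps somites epithelial, Meox1, Pax3 and Uncx served as markers of paraxial mesoderm, and they lay on both sides of wt. Pax3, counted in another list, stood above wt at 0.22 (limma adjusted p = 0.193), and Uncx below at -1.17 (adjusted p = 0.170). Tcf15 read 9.54 and 9.55 in Gcnf-/- embryos and 9.90 and 9.94 in wt embryos, and Meox1 9.78 and 9.60 in Gcnf-/- embryos and 10.47 and 10.15 in wt embryos. Their log2 fold changes were -0.37 ± 0.07 (adjusted p = 0.0834) and -0.62 ± 0.13 (adjusted p = 0.105), and neither genotype lacked either marker. Epha4, an ephrin receptor of the segmental boundary, was the one gene of this list with an adjusted p of 0.05 or lower. It stood at 0.70 ± 0.08 (limma adjusted p = 0.0414), higher in Gcnf-/- embryos but short of 2-fold. With each array left out in turn it ran from 0.64 to 0.77. Tbx6, a T-box factor of presomitic mesoderm, stood at 0.71 (adjusted p = 0.0535).

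Downstream genes of cartilage and vertebrae had a median of 0.04 over 12 measured, and 0 passed. Col2a1, the main collagen of cartilage and also made by the notochord, read 9.06 and 9.07 in Gcnf-/- embryos and 10.12 and 9.74 in wt embryos, at -0.86 ± 0.14 (adjusted p = 0.0652). Sox9 and Sox6, which drive cartilage genes, stood at -0.38 (adjusted p = 0.120) and -0.42 (adjusted p = 0.0714), and the growth factor receptor Pdgfra at 0.47 (adjusted p = 0.0728). In the dermomyotome and myotome list 1 of 14 passed, Dmrt2, a regulator of somite patterning, at a log2 fold change of -1.13 ± 0.10 (limma adjusted p = 0.0305). Its mean signal of 5.83 was under the median of 6.84 over all probe sets. With each array left out in turn Dmrt2 ran from -1.22 to -1.03. The median of the list was -0.09, and Eya1, a transcriptional cofactor in muscle precursors, stood at -0.93 (adjusted p = 0.0541). Six4 and Pax7, next by p in this list, stood at -0.52 (limma adjusted p = 0.103) and -0.48 (adjusted p = 0.173). Below wt lay 10 of the 14. Pax3, also used as a marker of paraxial mesoderm, is named outside the rule for this list. It stood above wt at 0.22 (adjusted p = 0.193).

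Markers of other tissues were set beside the members, since several of these are active there. In the neural crest and head mesenchyme list, 9 of 13 lay below wt with 0 passing. Its mean log2 signal was 8.46 and 8.51 in Gcnf-/- embryos and 8.68 and 8.77 in wt embryos, and its genes lay on both sides of wt. Of the 4 with the smallest p, Sox10, which marks migrating crest, stood at -0.65 (adjusted p = 0.0506), Ets1 at -0.49 (adjusted p = 0.0824) and Dlx2, a homeobox gene of cranial neural crest, at -1.41 (adjusted p = 0.0879), while Msx2, a homeobox gene of crest and other mesenchyme, stood above wt at 0.59 (adjusted p = 0.0771). The further defining markers Foxd3, of early crest, and Prrx1, of head and limb mesenchyme, stood at -0.35 (adjusted p = 0.234) and -0.33 (adjusted p = 0.117). In the pharyngeal endoderm list 4 of 9 lay below wt, with a median log2 fold change of 0.16. At an adjusted p of 0.05, 2 of the 9 were lower and 1 higher. These were Pax8 at -1.18, which passed 2-fold too, Tbx1, a gene of pharyngeal endoderm and mesoderm, at -0.66, and Epcam at 0.63. Pax8 was dim, at a mean signal of 6.72. In RNA of whole embryos the tissue that gave the signal of these genes cannot be told. Krt8 and the defining marker Foxa2 stood above wt, at 0.26 (limma adjusted p = 0.140) and 0.16 (adjusted p = 0.338). With each array left out in turn, Pax8 ran from -1.20 to -1.17, Tbx1 from -0.69 to -0.62 and Epcam from 0.60 to 0.67. The mean signal of the list was 9.24 and 9.27 in Gcnf-/- embryos and 9.27 and 9.30 in wt embryos. The limb and lateral plate list had 3 of 11 below wt (mean signal 8.64 and 8.66 in Gcnf-/- embryos, 8.35 and 8.41 in wt embryos). Its smallest p belonged to Tcf21, at 0.74 (limma adjusted p = 0.062), and Twist2, at 0.38 (adjusted p = 0.0931). The heart and endothelium list had 2 of 9 below wt (9.91 and 9.94 in Gcnf-/- embryos, 9.68 and 9.79 in wt embryos). Tnnt2 and Myl7 stood at 0.52 (adjusted p = 0.0742) and 0.41 (adjusted p = 0.114). Tie1 stood at -0.29 (adjusted p = 0.128) and the defining marker Cdh5 at 0.015 (adjusted p = 0.938). In either list 0 passed. The part of these tissues in the values of Foxc1, Foxc2, Meox2 and the other members was not tested.

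**Figure D4:**
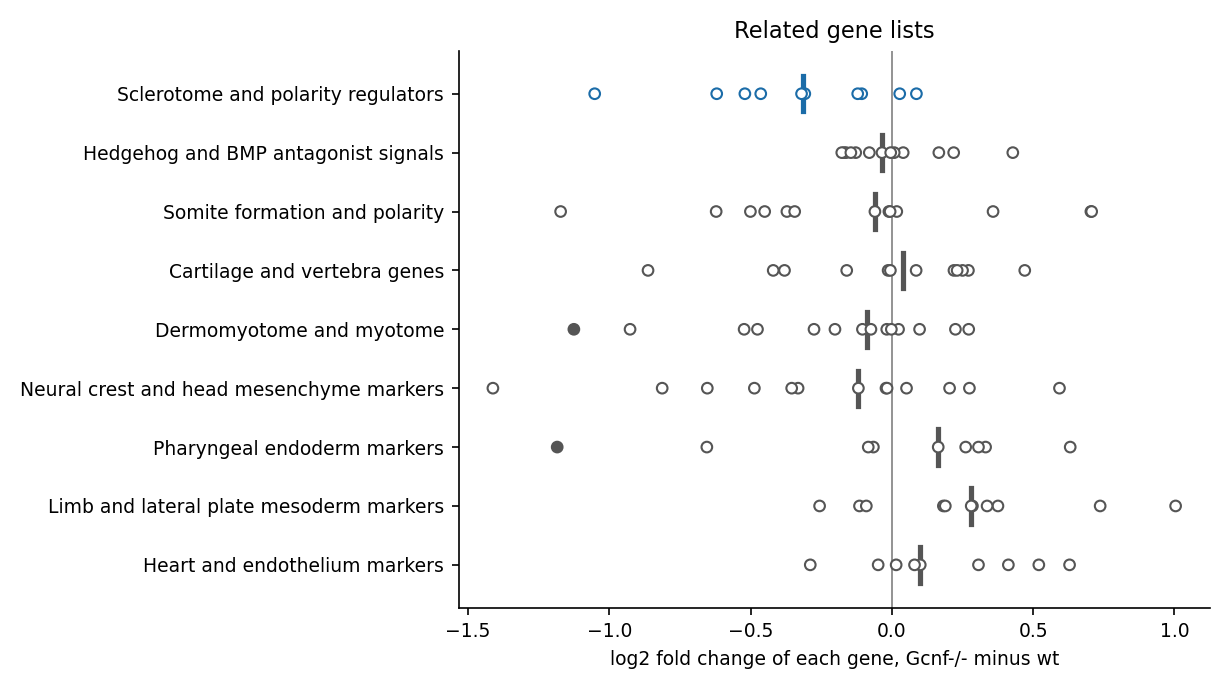
Log2 fold change (horizontal axis, Gcnf-/- minus wt) of each measured gene by its brightest probe set (points) in the members (blue, top row) and in 8 related lists (grey), with the list median as a bar; filled points passed an adjusted p of 0.05 and 2-fold. Dmrt2 and Pax8 are the filled points, and the members' median of -0.31 is the lowest of the lists shown.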

How the data were processed

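Affymetrix Mouse Genome arrays of 2 Gcnf-/- and 2 wt embryos were analysed from the values the authors deposited, which are log2 signals from RMA, the robust multi-array average, a method that corrects background, quantile normalises and summarises probes. No RMA version was stated. Such normalisation hides a shift of most transcripts together, and unspecific signal understates the change of dim probe sets. Leaving out 64 control probe sets left 45037 to test. Of these 77.6% had a single symbol, updated by Entrez identifier against RefSeq genes of GRCm38.p6 (99.4% matched, 0 changed).

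Genotypes were compared by limma 3.58.1 (lmFit, eBayes; R 4.3.3), genotype being the only term, with Benjamini-Hochberg adjustment over all 45037 probe sets, and called at the study's thresholds. A gene is represented by the probe set with the highest mean signal over the 4 arrays. The replicates were taken as separate embryos, since the methods describe extraction per embryo. The smallest two-sided p of an exact permutation test is 0.333 for 2 against 2 arrays. The p-values of limma borrow spread from all probe sets, and the number of arrays limits the precision. Named were every member probe set and, of each related list (hedgehog and BMP antagonists, somite formation, cartilage, dermomyotome, neural crest, pharyngeal endoderm, limb and heart), called genes, up to 4 with the smallest p and the defining markers. Listed genes with no single-symbol probe set, 8 in all, were not analysed here. The members and lists were chosen with earlier results of these data known. The alternatives were a replicate block, each array left out, a filter on dim probe sets, 2 other normalisations, 2 variance models, no fold threshold, no shared-sequence probe sets, and other ways to represent a gene.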

Additional observations from a re-analysis of the deposited data

How the results depend on the processing

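The count of member probe sets called was 0, where 172 of all probe sets were called. With the replicate number as a block it was 0 too, but so was the count over all probe sets, so that this fit says nothing particular of the members. Among probe sets above the median signal it was 0 (173 called over all), but by construction. That filter leaves Meox2 out, and no member left in it reached 2-fold. It stayed 0 with robust eBayes (171). The same held with no fold threshold (439) and without shared-sequence probe sets (139). It was 1 after repeated quantile normalisation (215 over all), 1 after median centring (195) and 2 with an intensity trend (260), all probe sets of Meox2. With the mean of all probe sets per gene 1 of 10 genes was called, Meox2 at -1.17 (limma adjusted p = 0.0446), beside 113 over all genes. The cause was not tested. The median member fold change was -0.31 with the replicate block too and ran from -0.43 without Gcnf-/- replicate 1 to -0.19 without Gcnf-/- replicate 2. Members below wt numbered 8 of 10, 9 with the mean of probe sets and 9 with the smallest-p probe set per gene, 7 to 10 with arrays left out, and 5 of the 7 genes left among brighter probe sets, by construction.

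Pax1, Foxc1, Foxc2, Meox2, Scx and Cdh11 lay below wt in every alternative that gave a value. With arrays left out, Nkx3-2 ran from -0.23 to 0.0155 (above wt without wt replicate 1), Pax9 from -0.10 (without wt replicate 2) to 0.16, Tbx18 from -0.0488 to 0.22 (below wt, at -0.0488 and -0.02, without Gcnf-/- replicate 1 and wt replicate 2) and Twist1 from -0.25 to 0.0115 (above wt without Gcnf-/- replicate 2). Pax9 stood at -0.0715 as the mean of its probe sets and at -0.24 by the probe set with the smallest p. Deviations of same-numbered embryos from their group means correlated at 0.06 across all probe sets. Among the 18 member probe sets, replicate 1 read above replicate 2 in 12 in Gcnf-/- embryos and in 17 in wt embryos. Over all probe sets the shares were 47.28% and 50.15%. Whether same-numbered embryos share more than a number was not tested. Dim signal limits Meox2, Scx and Nkx3-2 and, in the related lists, Dmrt2, Pax8 and Uncx.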
